A study of Mus musculus with 2 samples.

Results

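The genes described here are 9 transcription factor genes of the paraxial mesoderm and of the sclerotome: Pax1, Pax9, Nkx3-2, Meox1, Meox2, Foxc1, Foxc2, Tbx18 and Sox9. They are all 9 of the named set found among 23084 gene symbols of the deposited expression table, and they were chosen by name with the values of this same comparison already known, so every number on them is a description. RNA came from embryonic fibroblasts (MEF) of ICR mice, cells grown out of dissociated embryos, which were sorted by how far the mitochondrial permeability transition pore (mPTP), a channel of the inner mitochondrial membrane, was open. Both pools received calcein and cobalt chloride. Dim cells, whose calcein was quenched, formed the high mPTP opening group (the high-opening library) and bright cells the low mPTP opening group (the low-opening library), with 1 library each, so no difference below has a replicate check and no p-value is given. The sources used here do not give the age of the embryos or how many embryos and cultures were pooled.

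Paraxial mesoderm lies on both sides of the neural tube and is cut into somites, whose ventral part, the sclerotome, forms vertebrae, ribs and intervertebral discs. FOXC1, FOXC2, MEOX1, MEOX2 and TBX18 act in the forming and patterned somite. PAX1 and PAX9 appear in the sclerotome in response to Sonic hedgehog from the notochord and floor plate, switch on Nkx3-2, and work with SOX9 towards cartilage. Several of these genes are also used elsewhere: Tbx18 in mural and epicardial cells, Sox9 in neural crest and cartilage, and Foxc1 and Foxc2 in vessels and kidney mesenchyme.

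PAX1 and PAX9 are close paralogs whose genes differed in how far the libraries lay apart, so the 250 bases before their start sites are shown first. Both are RefSeq promoter sequences on build GRCm38.p6, plus strand, at chr2:147364744-147364993 for Pax1 and chr12:56695221-56695470 for Pax9, and both lie in an intron of a longer annotated transcript of the same gene. Capitals mark matches to CCACCCA, the core of the site bound by GLI, the transcription factors of the Hedgehog pathway (read on the opposite strand as TGGGTGG), and to the CCAAT box.
Pax1: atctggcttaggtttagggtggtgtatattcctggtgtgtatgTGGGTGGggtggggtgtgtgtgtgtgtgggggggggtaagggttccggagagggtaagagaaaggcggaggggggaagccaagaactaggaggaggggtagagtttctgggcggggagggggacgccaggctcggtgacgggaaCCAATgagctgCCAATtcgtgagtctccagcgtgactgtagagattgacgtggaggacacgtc
Pax9: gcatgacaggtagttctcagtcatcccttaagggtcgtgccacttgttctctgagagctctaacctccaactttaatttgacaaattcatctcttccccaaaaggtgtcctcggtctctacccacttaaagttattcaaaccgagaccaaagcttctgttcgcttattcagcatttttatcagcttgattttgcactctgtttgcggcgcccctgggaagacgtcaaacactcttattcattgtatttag
The Pax1 window held the GLI core at positions -207 to -201 from the start site and 2 CCAAT boxes, and the Pax9 window held none of these. Over 27025 genes with such a window, 9.29% held the GLI core on either strand, 37.5% held CCAAT or ATTGG, and 14.3% held the TATA box TATAAA or its reverse complement. The longer GLI site GACCACCCA, or TGGGTGGTC, was in 0.255% of windows and in none of the 6 members with a window (Pax1, Pax9, Nkx3-2, Meox2, Foxc1 and Tbx18). CCAAT boxes were also found for Foxc1 and Tbx18 and a TATA box for Meox2. A match is a run of letters and not a shown binding site.

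All 9 genes were measured, which here means a mean of at least 1 FPKM over the libraries (FPKM counts sequenced fragments per unit of exon length, corrected for depth), and 5 reached a mean of 5 FPKM. Nkx3-2 was under 1 FPKM in the low-opening library and passed only through the high-opening one. Pax1 stood apart from the other 8: it was the member with the highest ratio of high to low mPTP opening, and the others lay between -0.08 and 0.38 on the log2(FPKM + 1) scale used for all differences here. The count at 1.5-fold or more was 1 higher and 0 lower of 9, against 1.54% higher and 4.38% lower of the 11898 measured genes. At 2-fold or more it was also 1 of 9 higher, against 0.328% of all measured genes. The median difference of the 9 was 0.17, and 0.17 without Pax1, beside -0.02 for all measured genes. After scaling the libraries to a common sum the all-gene counts were 321 higher and 380 lower, against 183 and 521 as deposited. Since the members were picked with this contrast in view, nothing is read from these shares. In bulk RNA, fewer cells of a type and less RNA per cell cannot be told apart.

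**Figure D1:**
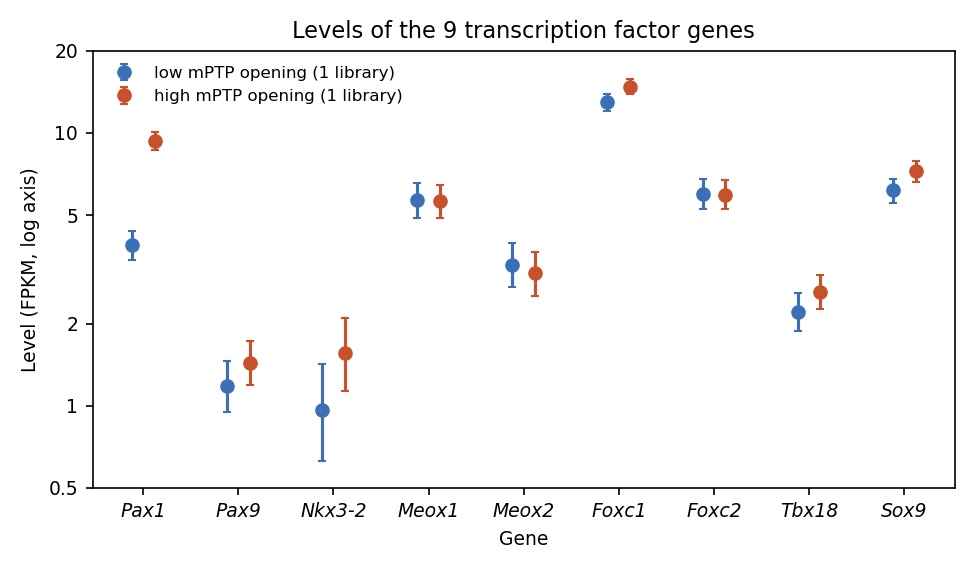
Level of each gene in FPKM on a log axis, with 1 point per library and exact 95% Poisson intervals for counting error alone. Pax1 is at 3.87 FPKM in the low-opening and 9.31 FPKM in the high-opening library, while the 2 points of most other genes lie close together.

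Sequencing depth, found from the steps of the FPKM values, was 15060422 mapped reads for the low-opening and 16375707 for the high-opening library. Every member came out at whole read numbers in both libraries. For Foxc1 this held only with its deposited single-exon span. That length was chosen because the annotated exon length did not give whole reads in both libraries. The brackets after a ratio hold its exact 95% interval, which covers counting error and nothing that differs between cultures or sorts. The 9 genes rested on 25 to 957 reads each, so the precision differed widely among them.

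Of the sclerotome genes, Pax1 was the one with a large difference. Pax1, a paired box gene of ventral sclerotome needed for vertebral bodies and discs (ENSMUSG00000037034, chromosome 2, 147361925 to 147393295), was at 3.87 FPKM from 262 reads in the low-opening and at 9.31 FPKM from 685 reads in the high-opening library. The ratio was 2.40 (2.08 to 2.78), and Pax1 was at rank 31 of 11898 measured genes ordered from the highest difference. Its paralog Pax9, which shares sclerotome roles and is also needed for teeth and pharyngeal pouches (chromosome 12, 56691767 to 56712822), was at 1.18 FPKM from 90 reads and 1.44 FPKM from 119 reads, with a ratio of 1.22 (0.917 to 1.62). The Pax9 interval includes 1, so these reads do not separate the libraries for Pax9. Nkx3-2, a homeobox repressor downstream of PAX1 and PAX9 that promotes cartilage (chromosome 5, 41761483 to 41764501), was at 0.966 FPKM from 25 reads and 1.56 FPKM from 44 reads. Its ratio of 1.62 was the second highest of the set but had the widest interval, 0.969 to 2.76, and at 0.38 on the log2(FPKM + 1) scale it was short of 1.5-fold. Alongside Pax1, 4 of 13 measured vessel and mural markers were higher by that size, while 5 of 13 had negative differences, down to -0.56. By the same size 10 of 20 genes of G2 and M phase were higher and 13 of 16 macrophage markers were lower. The shares over all measured genes were 1.54% higher and 4.38% lower. The part of these markers in the Pax1 difference was not tested.

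The level of Pax1 relative to Pax9 was also computed in each library. Pax1 was 3.28 times the level of Pax9 per length in the low-opening and 6.48 times in the high-opening library, and the ratio of these ratios was 1.98 (1.43 to 2.72 for counting error). The same comparison gave 1.15 (0.939 to 1.41) for Foxc1 against Foxc2 and 1.07 (0.764 to 1.497) for Meox1 against Meox2. For these 2 pairs of paralogs the interval includes 1. Pax1 was already known as the member with the highest ratio, so nothing more is read from its ratio of ratios. Pax1 made up 9.16% of the summed FPKM of the 9 genes in the low-opening and 18.1% in the high-opening library. Without Pax1 the sums were 38.4 and 42.2 FPKM.

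Sox9, the HMG box factor that starts and maintains cartilage (ENSMUSG00000000567, chromosome 11, 112782224 to 112787760), was at 6.15 FPKM from 383 reads in the low-opening and 7.22 FPKM from 489 reads in the high-opening library. The ratio of 1.17 (1.03 to 1.35) was small, although counting error alone did not span 1. Its relative Sox10, the factor of neural crest glia, was at 3.26 FPKM in the low-opening and 0.0900 FPKM in the high-opening library. The latter is about 4 reads, approximate because the reads of Sox10 did not come out whole. Sox10 was among the 5 of 7 measured Schwann and neural crest markers lower by 1.5-fold, against 4.38% of all measured genes. The part of these markers in the Sox9 value was not tested. The other measured SOX genes were Sox4, at 19.0 and 14.2 FPKM, Sox11, at 4.16 and 4.52 FPKM, and Sox12, at 9.81 and 10.6 FPKM, in the low-opening and high mPTP opening library in that order. Sox8, the remaining relative of Sox9 and Sox10, had a mean under 1 FPKM, from 13 reads in each library.

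The forkhead genes of paraxial mesoderm differed little. Foxc1, needed with Foxc2 for somite formation (ENSMUSG00000050295, chromosome 13, 31806691 to 31810643), was the member with the highest level in both libraries, at 13.0 FPKM from 772 reads in the low-opening and 14.8 FPKM from 957 reads in the high-opening library. The ratio was 1.14 (1.04 to 1.26), a small difference that rests on the highest read number of the set. Foxc2, which also acts in lymphatic vessels (chromosome 8, 121116171 to 121118895), was at 5.99 FPKM from 246 reads and 5.94 FPKM from 265 reads. Its ratio was 0.991 (0.830 to 1.18), and the sign of its difference turned positive under 3 of 6 alternative settings.

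The homeobox genes Meox1 and Meox2, which act together in patterning somites and in sclerotome polarity, lay at about the same level in both libraries. Meox1 (chromosome 11, 101877510 to 101894374) was at 5.66 FPKM from 190 reads in the low-opening and 5.62 FPKM from 205 reads in the high-opening library, a ratio of 0.992 (0.811 to 1.22). Meox2, which is also expressed in limb muscle precursors and vessels (chromosome 12, 37108540 to 37179534), was at 3.29 FPKM from 117 reads and 3.05 FPKM from 118 reads, a ratio of 0.928 (0.712 to 1.21). Scaling turned the sign of Meox1 under 3 of 6 alternative settings and that of Meox2 under 1 of 6. Tbx18, a T-box repressor that keeps the anterior and posterior somite apart (chromosome 9, 87702800 to 87731260), was at 2.21 FPKM from 157 reads and 2.61 FPKM from 202 reads. Its ratio was 1.18 (0.956 to 1.47), and 20.6% of its exon sequence is shared with the opposite-strand gene D030062O11Rik, which was itself at 0.118 and 0.174 FPKM. The exon share that overlaps another gene was 4.07% for Pax1, 3.74% for Pax9 and 0 for the other 6.

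**Figure D2:**
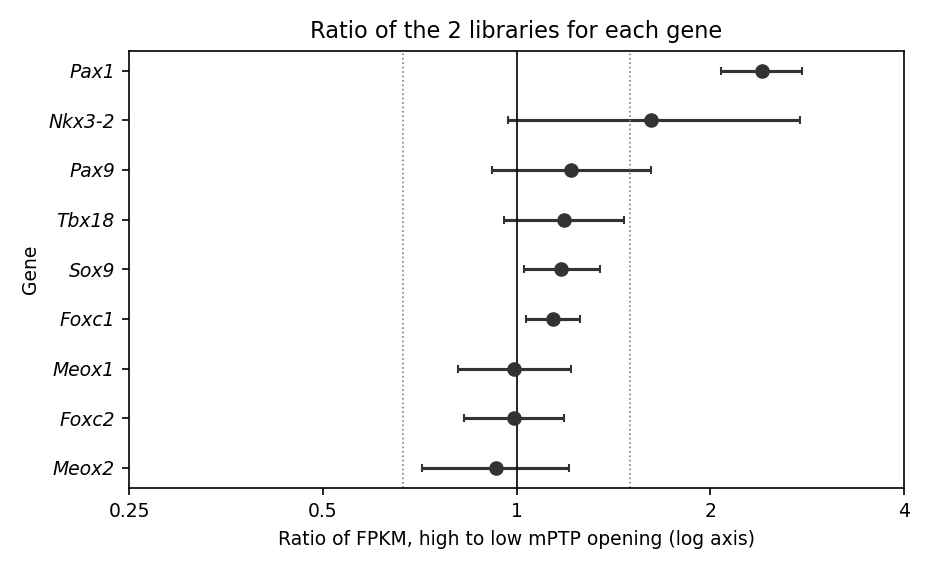
Ratio of FPKM in the high to the low-opening library for each gene on a log axis, with exact 95% intervals for counting error. The solid line marks equal levels and the dotted lines 1.5-fold in each direction; the whole interval of Pax1 lies above the upper dotted line, and 6 of the 9 intervals include 1.

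The order of the members by level differed in the place of Pax1 and in that of Nkx3-2 and Pax9, which changed places at the bottom with overlapping intervals. In the low-opening library the order was Foxc1, Sox9, Foxc2, Meox1, Pax1, Meox2, Tbx18, Pax9 and Nkx3-2. Sox9, Foxc2 and Meox1 could not be told apart there by their counting intervals, nor could Pax1 and Meox2, nor Pax9 and Nkx3-2. In the high-opening library Pax1 was in the second place, with an interval of 8.63 to 10.04 FPKM that met neither that of Foxc1 above it nor that of Sox9 below it. Sox9 and Foxc2, Foxc2 and Meox1, Meox2 and Tbx18, and Nkx3-2 and Pax9 were neighbours with overlapping intervals in that library.

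By difference, Pax1 was at position 4 of the 7324 genes that averaged 5 FPKM or more. At 3.87 FPKM in the low-opening library, Pax1 passed that filter only through the library where it was high. Nothing is therefore read from the position of Pax1. Its neighbours in that order, the genes whose single difference over 2 libraries was most like it, were the smooth muscle myosin Myh11 and the smooth muscle actin Actg2 above it, at 1.34 and 1.12, and the pseudogene Rpl31-ps8 and the predicted gene Gm27326 below it, at 1.08 and 1.03. Of these neighbours Myh11, Rpl31-ps8 and Gm27326 were also under 5 FPKM in the low-opening library. Sox9 and Foxc1 were at positions 1147 and 1367 and Meox1 and Foxc2 at 3834 and 3869. The genes next to them included Nudcd2, Ubap2, Sumo2 and Acot9 for Sox9, Cstf2t, Cenpc1, Sept2 and Luzp1 for Foxc1, Cluh, Qser1, Foxo4 and Tcf12 for Meox1, and Rps3a1, Thoc2 and Def8 for Foxc2.

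The deposited annotation places 471 measured genes under sequence-specific DNA binding transcription factor activity, 7 of the members among them. In this group, examined after its values were seen, Pax1 was the one gene at 1.5-fold or more higher, 10 were lower by that size, and the median was -0.06. Next to Pax1, with a difference of 1.08, came the predicted gene Gm10226 at 0.56 and the mitotic forkhead gene Foxm1 at 0.51. The lowest were Sox10 at -1.96 and Gata4, a cardiac and visceral mesoderm factor, at -1.06. Nkx3-2 and Tbx18 do not carry this annotation. Gli1, Foxs1, Foxf1 and Gsc are outside the group too, at differences of 0.82, 0.82, 0.67 and 0.62. Pax1 was thus not the only transcription factor gene higher by 1.5-fold. By protein domain, Nkx3-2 was at place 2 of 41 measured homeobox genes, after Gsc, a gene of organiser and craniofacial mesenchyme at 0.995 FPKM in the low-opening and 2.07 FPKM in the high-opening library. Both were under 1 FPKM in the low-opening library and entered the 41 only through the library where they were high, so nothing is read from their places. The homeobox median was 0.05, with 1 gene, Gsc, higher and 0 lower by 1.5-fold.

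**Figure D3:**
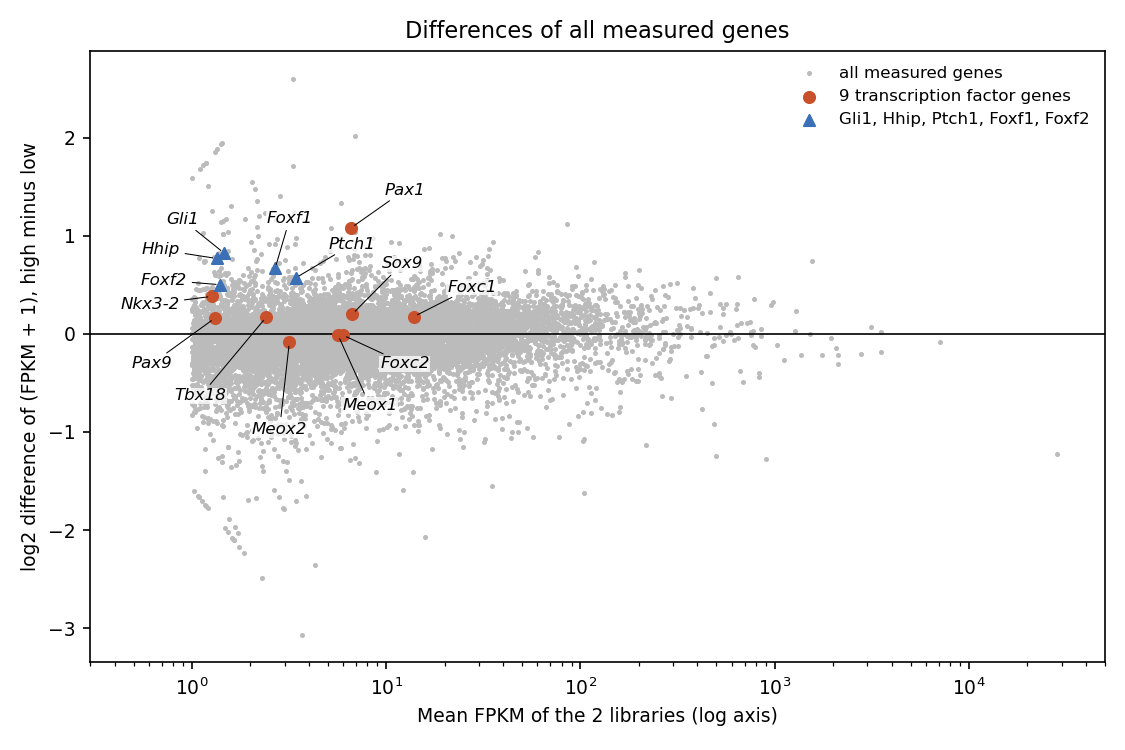
Difference of every measured gene, high minus low mPTP opening on the log2(FPKM + 1) scale, against its mean FPKM on a log axis. The 9 genes are circles and 5 genes of the Hedgehog pathway or its mesenchymal targets are triangles; Pax1, at 1.08, has few genes of its level above it, and the other 8 circles lie inside the cloud.

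Hedgehog signalling, which induces Pax1 and Pax9 in the sclerotome, was examined as a list of 17 genes, 13 of them measured. Gli1, Hhip and Ptch1, which the pathway itself switches on, had higher values in the high-opening library, while Smo, Gli2 and Gli3 differed little. Of the 13, 2 were higher by 1.5-fold or more and 1 was lower, and the list median was -0.00, against -0.02 for all measured genes, with a sign that turned under 3 of 8 alternative settings. The 2 higher genes, Gli1 and Hhip, were under 1 FPKM in the low-opening library and passed the filter only through the library where they were high, so nothing is read from that count.

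Gli1, a GLI factor whose transcription is a standard readout of the pathway, was at 0.779 FPKM in the low-opening and 2.15 FPKM in the high-opening library, a ratio of 2.76 (2.03 to 3.75, approximate because its reads did not come out whole). Hhip, which binds and holds back Hedgehog ligands, was at 0.732 FPKM from 100 reads and 1.95 FPKM from 290 reads, a ratio of 2.67 (2.12 to 3.38). Ptch1, the ligand receptor that restrains SMO, was at 2.55 and 4.27 FPKM, a ratio of 1.68 (1.51 to 1.86, approximate for the same reason), and at 0.57 it was just short of 1.5-fold on the log2(FPKM + 1) scale. These 3 genes were singled out after their values were seen, and their values are a description.

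The other genes of the list lay upstream of these. Smo, the signal transducer, was at 33.7 and 36.2 FPKM, Gli2 at 8.14 and 8.72 FPKM and Gli3 at 14.2 and 13.2 FPKM. The co-receptors Boc, Cdon and Gas1 had ratios of 0.857, 0.821 and 0.849, Sufu and Kif7, which regulate the GLI factors, had ratios of 0.951 and 0.999, and Disp1, which releases ligand, had a ratio of 1.13. Scube2, a secreted factor that helps release ligand, was the one member lower by that size, at 3.77 and 1.49 FPKM, 2.54-fold lower (2.004 to 3.24). The ligands were near the limit of detection: Shh had 2 reads in the low-opening and 0 in the high-opening library, Ihh had 1 and 6 reads, and Dhh was at 0.421 and 0.233 FPKM. No direction is read from ligands at these levels. In the promoter windows of Ptch1, Hhip and Foxf2 neither GLI motif was found, which says only that these letters are not in those windows.

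**Figure D4:**
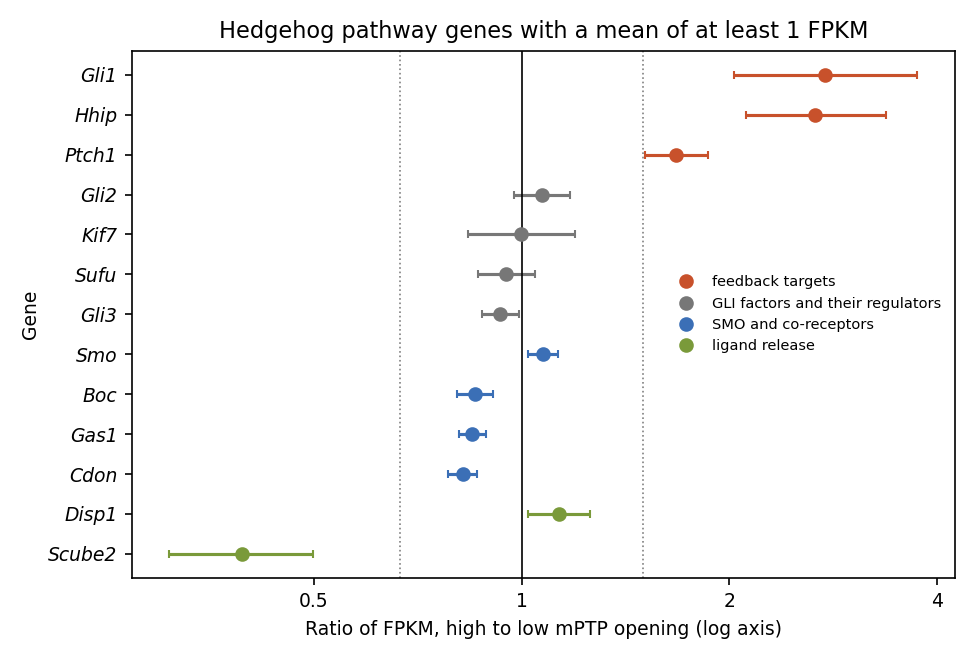
Ratio of FPKM in the high to the low-opening library for the 13 measured Hedgehog pathway genes on a log axis, coloured by role, with exact 95% intervals for counting error. Gli1, Hhip and Ptch1 lie to the right at ratios of 2.76, 2.67 and 1.68, Scube2 lies to the left at 0.394, and the other 9 lie between the dotted lines of 1.5-fold.

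The genes next to the members on the chromosome were examined within 500 kb of each start. There were 73 such genes with a row, of which 37 were measured, with 1 higher and 1 lower by 1.5-fold or more. For comparison, the shares passing this size in the full set of 11898 were 1.54% upwards and 4.38% downwards. No pattern around the members is therefore read from 1 neighbour in each direction. The higher one was Foxf1, a forkhead gene of splanchnic mesenchyme that starts at -31.8 kb from Foxc2, at 1.84 FPKM from 67 reads in the low-opening and 3.51 FPKM from 139 reads in the high-opening library, a ratio of 1.91 (1.42 to 2.59). Fendrr, the noncoding RNA that is transcribed away from Foxf1, was at 13 and 35 reads, while Foxl1, on the other side of Foxc2, was at 15 and 16 reads. The level of Foxf1 relative to Foxc2 was 0.307 in the low-opening and 0.592 in the high-opening library, a ratio of ratios of 1.93 (1.35 to 2.75). Foxf1 was named here because it was the higher neighbour, so nothing more is read from this ratio of ratios.

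A second forkhead cluster holds Foxf2 and Foxc1, and no shared pattern of the 2 clusters is read from these values. Foxf2, which starts at -181 kb from Foxc1, was at 0.983 FPKM from 35 reads and 1.81 FPKM from 70 reads, a ratio of 1.84 (1.21 to 2.84) and a difference of 0.50, short of 1.5-fold on the log2(FPKM + 1) scale, with a low-opening level under the filter of 1 FPKM. Relative to Foxc1 its level gave a ratio of ratios of 1.61 (1.05 to 2.52). In mice Foxf1 and Foxf2 respond to Hedgehog signals in mesenchyme, which was not tested here. The nearest measured neighbours of other members differed little: Xrn2 beside Pax1 was at 30.1 and 35.0 FPKM, Mbip beside Pax9 at 12.1 and 10.5 FPKM, Rab28 and Bod1l on either side of Nkx3-2 at 9.91 and 10.7 FPKM and at 6.76 and 7.38 FPKM, Mthfsd and Fbxo31 on either side of Foxc2 at 1.92 and 1.96 FPKM and at 3.43 and 3.66 FPKM, Gmds beside Foxc1 at 6.93 and 7.61 FPKM, and Slc39a11 beside Sox9 at 7.02 and 6.93 FPKM. On either side of Meox1, Etv4 was at 1.80 and 2.18 FPKM and Dusp3 at 9.20 and 7.32 FPKM. The lower gene was Tmem106a, at -295 kb from Meox1, at 12.1 and 7.51 FPKM. Gm15524, an antisense gene whose span overlaps the start of Pax9, was at 0 and 0.264 FPKM.

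Other genes of axial skeleton and of somite fates were compared as lists. The median's sign turned under 1 of 8 alternative settings for other sclerotome, bone, BMP and dermomyotome genes and under 2 of 8 for limb bud genes, so no direction is read from these medians. Of 14 measured genes in the list of other sclerotome and axial skeleton genes, Foxf1 was higher and Dlk1, an imprinted gene of embryonic mesenchyme, was lower by 1.5-fold or more, at 137 and 90.2 FPKM, with a list median of -0.07. Uncx, a homeobox gene of the posterior sclerotome, was at 40 and 58 reads with a mean under 1 FPKM, a ratio of 1.33 (0.876 to 2.05). Of 9 measured tendon progenitor genes, which derive from the sclerotome border, none passed 1.5-fold, 2 had a positive difference, against 45.4% of all measured genes, and the median was -0.41, or -0.24 with a pseudocount of 5 FPKM. Tnmd and Fmod, tendon matrix genes, were furthest apart in that list, at 66.7 and 46.3 FPKM and at 73.0 and 53.3 FPKM. Scx, the tendon progenitor factor, was at 9.94 and 7.69 FPKM. The 2 genes with a positive difference were Mkx, at 3.86 and 4.05 FPKM, and Etv4, at 1.80 and 2.18 FPKM. Egr1 had the highest level of the list, at 276 and 206 FPKM.

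Cartilage genes, which PAX1, PAX9, NKX3-2 and SOX9 act upon, did not move one way. Of 11 measured, 0 were higher and 1 was lower by 1.5-fold or more, and the median was 0.06. Col2a1, the main cartilage collagen and a direct target of SOX9, was at 60.7 and 61.2 FPKM. The lower gene was Col9a2, a fibril-associated collagen, at 4.63 and 1.95 FPKM, 2.37-fold lower (1.86 to 3.04), and Matn4, a matrix adaptor, was at 2.66 and 1.44 FPKM. Acan, the cartilage proteoglycan, picked after its value was seen, was at 1.89 and 3.04 FPKM, a ratio of 1.61 (1.35 to 1.91). Of 7 measured bone genes 2 were higher: Col10a1, the collagen of hypertrophic cartilage, at 16.4 and 26.9 FPKM, and Ibsp, a bone sialoprotein, at 2.99 and 5.34 FPKM. The bone median was -0.07, and Runx2, the osteoblast factor, was at 7.34 and 6.21 FPKM.

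Genes of earlier or alternative mesoderm gave no shared direction. Of 14 genes of presomitic mesoderm and somite formation only Lfng and Epha4 were measured, at 4.37 and 3.24 FPKM and at 7.72 and 6.498 FPKM, while Tbx6 was at 14 and 10 reads and Mesp2 at 7 and 5 reads. Of 7 measured dermomyotome and myogenic genes none passed 1.5-fold, with a median of -0.03, and the ones furthest apart were Met at 3.15 and 4.09 FPKM and Dmrt2 at 1.81 and 1.38 FPKM. Pax3, the dermomyotome factor, had 4 and 1 reads. Of 21 limb bud and lateral plate genes 0 were higher and 1, Gata4, was lower, at 3.30 and 1.06 FPKM, with a median of -0.05, and Shox2 was at 8.58 and 6.49 FPKM. Of 3 intermediate mesoderm genes none passed, with Wt1 at 2.58 and 1.81 FPKM and Eya1 at 2.66 and 2.18 FPKM and a median of -0.20. Of 15 measured BMP signals and antagonists, which oppose or permit sclerotome fate, none passed, with a median of -0.09, and Smoc2 and Chrd were furthest apart at 62.0 and 45.2 FPKM and at 1.90 and 1.31 FPKM. Bmpr1b, a BMP receptor with a mean under 1 FPKM, was at 44 and 111 reads, a ratio of 2.32 (1.62 to 3.37).

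**Figure D5:**
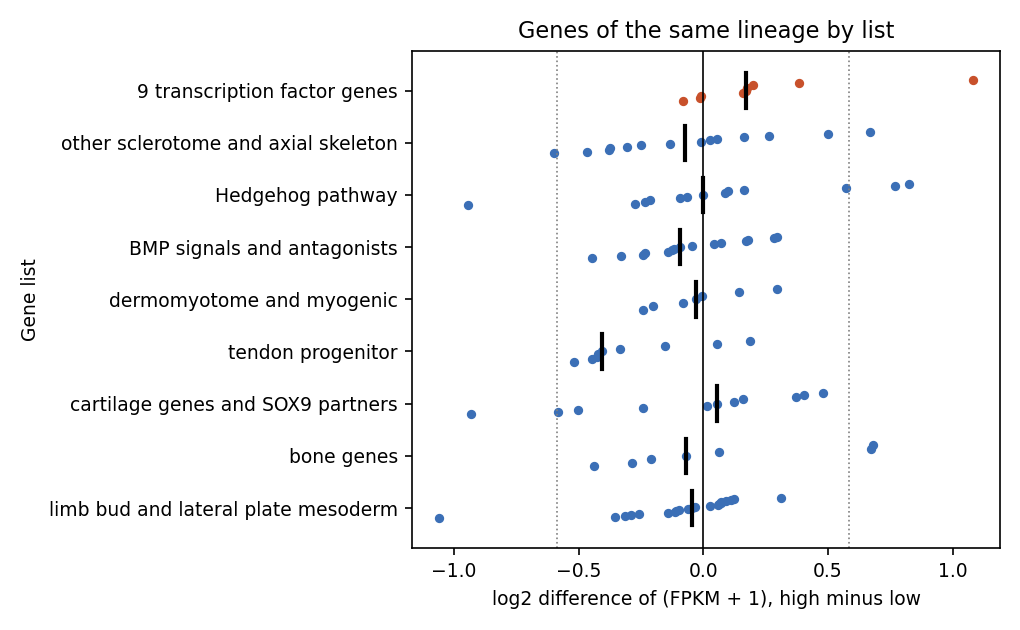
Difference of each measured gene on the log2(FPKM + 1) scale, high minus low mPTP opening, for the 9 transcription factor genes and 8 lists of related genes, 1 point per gene. Black bars are medians and dotted lines mark 1.5-fold in each direction; Pax1 is the point furthest to the right, at 1.08, and the tendon list has the lowest median, at -0.41.

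Relatives of the members in the same protein families were compared last, and the sign of the T-box, forkhead and SOX medians turned under 1 of 8 alternative settings each. Of the 9 PAX genes only Pax1 and Pax9 were measured, and each of the others in the table had at most 4 reads in a library. Of 8 measured T-box genes none passed 1.5-fold, with a median of 0.06. Tbx15, at 26.0 and 27.2 FPKM, was the most abundant and lay far above Tbx18, and Tbx1, at 0.897 and 1.37 FPKM, and Tbx2, at 5.15 and 4.03 FPKM, were furthest apart. Tbx3, Tbx4, Tbx5 and Mga had differences between -0.11 and 0.09. Over all 19 measured genes with a forkhead domain 2 were higher and 0 lower by 1.5-fold, with a median of 0.02: Foxs1, a forkhead gene picked after its value was seen, at 1.37 and 3.17 FPKM, and Foxf1. In the shorter list of related forkhead genes Foxf1 was 1 of 8 measured to pass, with a median of 0.14, and Foxd1 was at 7.82 and 9.60 FPKM and Foxp1, Foxp2 and Foxp4 were within 1.5-fold. Of 5 measured SOX genes Sox10 was lower and none was higher, with a median of 0.10.

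Markers of other cells in the cultures moved between the libraries, and their part in the values above was not tested. Of 16 macrophage markers 13 were lower, with a summed level of 1084 FPKM in the low-opening and 539 FPKM in the high-opening library, and no marker was at 0. Of 9 measured mesothelial and epicardial markers 7 were lower (58.8 and 30.8 FPKM over the list), and of 7 measured Schwann and neural crest markers 5 were lower (46.6 and 25.2 FPKM), with none at 0 in either list. Of 13 measured vessel and mural markers 4, the contractile genes Myh11, Acta2, Cnn1 and Des, were higher, and the list sum of 1320 and 2139 FPKM was mostly Acta2, at 1166 and 1953 FPKM. The list median was 0.13, and the mural genes Abcc9, Notch3 and Kcnj8 had ratios of 0.513, 0.659 and 0.652. Cspg4, Pdgfrb and Mcam of the same list went the other way, with ratios of 1.20, 1.14 and 1.10. Rgs5 had a ratio of 0.920 (0.728 to 1.16), and the contractile gene Tagln one of 1.13 (0.744 to 1.74). Of the endothelial markers Pecam1, Cdh5 and Tie1 were at or below 0.174 FPKM, with Tie1 at 0 in the high-opening library, Kdr was at 1.09 and 1.01 FPKM and Emcn at 0.110 and 0.542 FPKM. Of 20 genes of G2 and M phase 10 were higher (270 and 419 FPKM). Of 13 fibroblast markers 0 were higher and 3, Dcn, Lum and Dpt, were lower (6742 and 6625 FPKM, with S100a4 at 0 in the low-opening library). Col1a1, at 3059 and 3204 FPKM, and Col1a2, at 1252 and 1279 FPKM, collagen genes of the fibroblast list, were abundant in both libraries.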

How the data were processed

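RNA of 2 sorted pools, 1 library each, was compared. The values are FPKM as the authors deposited them, in 1 table that also gives Ensembl identifiers and positions. Per the submitters' processing notes, TopHat2 2.0.12, Bowtie2 2.2.3 and build mm10 were used. The sources used here name no counting tool, annotation or strand setting. FPKM times exon length (GENCODE M21, 99.7% of identifiers matched; for Foxc1 the deposited single-exon span) gave whole reads within 0.05 for 93.2% and 93.5% of genes with up to 20 reads. Reads served exact Clopper-Pearson intervals of ratios and Poisson intervals of levels, which cover counting error only. Differences are log2((high + 1)/(low + 1)) of FPKM, which understates low genes, and rows of 1 symbol were added. The members and the 20 gene lists were chosen with earlier results of these data known. Named genes were all members, list genes at 1.5-fold or otherwise the 2 furthest apart, measured relatives, the nearest measured neighbours, and neighbours in the order of differences; any others were picked after their values were seen. Some genes that this rule or the lists name are not reported here. Alternatives were pseudocounts, 4 scalings, filters and a 2-fold size. The code was tested on simulated data. Python 3.11.15, NumPy 2.4.6, pandas 2.3.3 and SciPy 1.17.1 were used, and matplotlib 3.10.9 drew the figures.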

Additional observations from a re-analysis of the deposited data

How the results depend on the processing

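With 1 library per group no replicate could be left out. No paired analysis was possible because each group has 1 library. Over 6 alternatives of pseudocount and scaling Pax1 lay between 0.69 (pseudocount of 5 FPKM) and 1.24, and 53 of 54 member values moved by less than their counting interval. The number of members at 1.5-fold or more higher was 2, with Nkx3-2 added at 0.64, with a pseudocount of 0.1 FPKM, and 1 under the other settings. The median of the 9 ran from 0.08 to 0.26. Gli1 ran from 0.31 to 1.36 and Hhip from 0.28 to 1.30 with pseudocounts of 5 and 0.1 FPKM. Before the pseudocount is added, scaling to a sum of 1000000 shifted log2 ratios by 0.12, and the other scalings by -0.0033 to 0.03. With the pseudocount, low genes moved by less under scaling to that sum, as with Pax9, from 0.160 to 0.234. The count of all measured genes higher and lower was 323 and 880 for a pseudocount of 0.1 FPKM, 48 and 141 for one of 5 FPKM, 381 and 826 unfiltered, 92 and 213 among genes averaging 5 FPKM or more, 39 and 114 at 2-fold, and 321 and 380 after scaling to a common sum, against 183 and 521. The PAX median was -0.0014 with no filter, and the Schwann and neural crest median was 0.12 among genes averaging 5 FPKM or more, because other genes entered or left the list.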
